A study of Homo sapiens with 16 samples.

Results

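The report concerns 260 array probes whose signal moved in opposite directions in HT1080 cells after 12 h of A0 and after 12 h of cisplatin. They were chosen by their measured 12 h values, from 24350 probes on the array that carry a GI sequence number. The rule used the processed intensities deposited by the authors, floored at 32 and put on the log2 scale. A probe was taken if its mean over the 2 arrays differed from the mean of the 2 control arrays by at least 0.6 at A0 12 h and at cisplatin 12 h, with opposite signs. It also needed a detection score of at least 0.99 on both control arrays, which 8264 probes had. Of the 260, 107 had a higher signal under A0 and a lower one under cisplatin, and these are called the A0-raised list. In the other 153 it was lower with A0 and higher with cisplatin, and these are called the A0-lowered list.

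HT1080 is an established human fibrosarcoma line. Per the labels, cells in complete growth medium received either A0, a thioxotriazole copper(II) complex, or cisplatin, each at 25 µM. Cisplatin has groups at 3, 6 and 12 h, and A0 has these and a further group at 1 h. The controls are labelled as control cells with no time, so drug and culture time cannot be told apart in any difference from control. Each of the 8 groups has 2 arrays. The labels do not say whether the arrays of a group stand for separate cultures. The p-values therefore reflect only how far these arrays vary, and that variation may be technical.

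Cisplatin is a platinum drug that forms adducts on DNA, which block replication and transcription and switch on the damage response. The title of the study names endoplasmic reticulum stress and paraptotic cell death as the effects of A0. Endoplasmic reticulum stress arises when unfolded protein accumulates in that compartment, and its signalling raises chaperone genes while it slows translation. Paraptosis is a form of cell death marked by swelling of the endoplasmic reticulum and mitochondria, without the features of apoptosis. The question asked here is which transcripts separate the responses to these agents by direction rather than by size, and when they part.

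The files do not pair GI numbers with gene names, and 0 of the 260 matched the reference table. No gene is therefore named, the gene lists and cell type markers could not be looked up, and only 4 probes are given by their number. The label of the cell line could not be checked against its markers for the same reason. Each array detected between 7626 and 9640 probes, with a median of 41 to 42 beads behind a probe, and the number of arrays limits the precision.

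The 12 h values that chose the probes describe the lists and are not tested. Over the A0-raised list the median difference from control was 0.83 on the log2 scale with A0, a factor of 1.78, and the largest was 3.30. The same probes were lower with cisplatin by a median of 0.89, a factor of 1.85, and by at most 2.66. The A0-lowered list had a median size of 0.97 with A0, a factor of 1.96, with a largest value of 2.91. With cisplatin these probes were higher by a median of 0.86, a factor of 1.82, and by at most 3.16.

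Many members lay close to the threshold. The smaller of a probe's 12 h differences was under 0.7 for 41 members of the A0-raised list and 54 of the A0-lowered list. It reached 1 for 13 and 19. Just inside the threshold, an A0-raised probe stood at 0.601 with A0 and -0.646 with cisplatin, and just outside it a probe stood at 0.599 and -1.42. The nearest pair in the other direction stood at -0.838 and 0.603 inside and at -0.599 and 0.685 outside. A further 80 and 107 probes had a smaller difference between 0.5 and 0.6, so the lists have no natural edge. Without cisplatin 12 h replicate 1 the rule would find 196 probes in place of 107, and without cisplatin 12 h replicate 2 it would find 231 in place of 153. Only 36 of the 107 and 50 of the 153 members were found again whichever of the 6 arrays of the rule was left out. For 10 of the 107 and 8 of the 153 the 12 h arrays of at least 1 drug overlapped the controls.

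The share of all 8264 probes past 0.6 was 19.7% for higher and 15.2% for lower at A0 12 h, and 11.3% and 14.2% at cisplatin 12 h. With the same threshold 255 probes were higher with both drugs and 342 lower with both.

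The arrays at 6 h took no part in the choice of the probes, so A0 6 h was compared with cisplatin 6 h by a test. Many members already differed in the 12 h direction. Of the A0-raised list, 41 of 107 probes were called higher with A0 than with cisplatin (limma's moderated test, Benjamini-Hochberg adjusted p of at most 0.05 over 9293 tested probes), against 3.29% of all tested probes. Of the A0-lowered list, 84 of 153 were called lower with A0, against 4.84% of all. By limma, 0 members of either list were called in the opposite direction. An unadjusted p under 0.05 was reached by 69 and 129 members of the lists, and by 22.4% of all tested probes. The 6 h count rested in part on the array cisplatin 6 h replicate 2. Without it fewer members were called, in a group left with 1 array that is assumed to vary like the others. The share of all tested probes called without it is not given, so the drop cannot be read as particular to the members.

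The lists lay on opposite sides of the array as a whole. The median over all 107 A0-raised probes was 0.77 on the log2 scale and over all 153 A0-lowered probes -1.11, against 0.0039 over all tested probes. Among the called members the difference ran from 0.74 to 3.18 with a median of 1.37 in the first list, and its size from 0.73 to 4.46 with a median of 1.55 in the second. By sign alone, 106 of 107 and 152 of 153 members already stood on their 12 h side, where 50.4% of all tested probes were higher with A0. Both A0 6 h arrays lay above both cisplatin 6 h arrays for 88 A0-raised probes, where 24.2% of all tested probes did so. They lay below them for 138 A0-lowered probes, where 26.3% of all did so. For 1 A0-raised probe the arrays were apart the other way.

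Members with a larger 12 h difference were called more often at 6 h, as a description without a test. Among A0-raised probes 16 of 67 probes with a smaller 12 h difference of 0.6 to 0.8 were called at 6 h, 14 of 27 with 0.8 to 1, and 11 of 13 with 1 or more. Among A0-lowered probes these counts were 42 of 88, 27 of 46 and 15 of 19. The dim side was undetected on both 6 h arrays for 1 called A0-raised probe and for 12 called A0-lowered probes, so their differences are measured against a signal at background.

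Among the 65 A0-raised members detected on all 16 arrays, 25 were called higher with A0 at 6 h, where 2.64% of all tested probes so detected were. Among the 63 such A0-lowered members 37 were called lower, where 4.01% of all were. These sets were chosen after the data were seen.

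The drugs were also apart at 6 h in probes whose 12 h gap between the drugs lay in the members' range but which did not meet the rule, a comparison chosen after the data were seen. Of 427 such probes with A0 higher, 123 were called higher at 6 h, or 28.8%, beside 38.3% of the A0-raised list. Of 315 with A0 lower, 118 were called lower, or 37.5%, beside 54.9% of the A0-lowered list. Their median 12 h gaps were 1.57 and -1.52, narrower than the members' 1.88 and -1.95, and the difference in shares was not tested. Of the 255 probes higher with both drugs, 7 were called higher and 20 lower with A0 at 6 h. Of the 342 lower with both, these counts were 23 and 5.

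At 3 h few of these probes passed a test between the drugs. None of the A0-raised list, 0 of 107, passed the limma test between A0 3 h and cisplatin 3 h, against 0.0108% of all tested probes that were higher with A0. At an unadjusted p under 0.05 there were 15, or 14%, where 5.47% of all probes did so. Of the A0-lowered probes 1 of 153 was called lower with A0, against 0.0108% of all. It was the probe GI_28872718-S, the only 1 of the 9293 tested probes called lower with A0 at that time. At an unadjusted p under 0.05 there were 38 members of this list, or 24.8%. More members were called at 3 h without A0 3 h replicate 2, without either of the A0 6 h arrays or without cisplatin 3 h replicate 1. The shares of all tested probes called in those fits are not given.

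The direction was often in place without a call. At 3 h the sign of the 12 h difference was already present in 85 of 107 and in 136 of 153 members. Of all tested probes 51.1% were higher with A0 at that time. The median differences of the lists were 0.25 and -0.40. Both A0 3 h arrays lay above both cisplatin 3 h arrays for 49 A0-raised probes, where 15.6% of all tested probes did so, and below them for 90 A0-lowered probes, where 14.8% did so. Arrays were apart the other way for 2 probes of each list.

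The change from 3 to 6 h was tested within each drug and between the drugs. With A0, 0 members passed limma's test between 6 h and 3 h, where 0% of all tested probes passed in either direction. At an unadjusted p under 0.05 there were 6 A0-raised probes, or 5.6%, and 32 A0-lowered probes, or 20.9%, where 5.18% of all did so. With cisplatin, 0 members passed, where 0% of all were called higher at 6 h and 0.0968% lower. At an unadjusted p there were 26 A0-raised and 45 A0-lowered probes, or 24.3% and 29.4%, where 9.7% of all did so. At least 1 member passed without cisplatin 3 h replicate 2 or without either of the A0 6 h arrays. The shares of all tested probes that passed in those fits are not given. The interaction of drug and time passed at 0 members and 0% of all probes, and at an unadjusted p under 0.05 at 23 and 60 members, or 21.5% and 39.2%, where 7.17% of all did so. The median interaction was 0.52 on the log2 scale in the A0-raised list and -0.72 in the A0-lowered list. By sign, 100 of 107 and 147 of 153 probes were on the 12 h side, where 47.9% of all tested probes were above 0. The few calls do not show that the drugs changed alike between these times.

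Differences from control before 12 h use the control arrays that chose the members, so they are given without a test. By their median the A0-raised probes stood above control in A0 at every time, and in cisplatin they were near control at 3 h. Their median on normalised log2 values was 0.12, 0.19, 0.46 and 0.65 at 1, 3, 6 and 12 h of A0. In cisplatin it was -0.002, -0.31 and -0.84 at 3, 6 and 12 h. At cisplatin 3 h its sign depended on the scale, with 0.067 on the processed values. The early A0 values depended on the scale and the controls too. The A0 1 h median was 0.232 on the processed values and 0.211 without control replicate 2, and the A0 3 h median was 0.322 on the processed values.

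By their median the A0-lowered probes stood on opposite sides of control with the drugs from 3 h on. In A0 their median was -0.14 after 1 h, -0.25 after 3 h, -0.56 after 6 h and -0.94 after 12 h. In cisplatin it was 0.14 after 3 h, 0.50 after 6 h and 0.77 after 12 h. The A0 1 h median was -0.071 on the processed values and -0.093 without control replicate 1, and the cisplatin 3 h median 0.224 and 0.209 in the same order. Over all tested probes the median lay between -0.058 and -0.001 in the 7 treated groups. On the processed values it reached 0.13 at A0 12 h, so that on that scale an A0-raised probe is set against a median already above 0.

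The median over a list can be followed array by array. For the A0-raised list the A0 arrays read 0.213 and 0.114 at 1 h, 0.238 and 0.21 at 3 h, 0.339 and 0.498 at 6 h, then 0.545 and 0.794 at 12 h. The cisplatin arrays read 0.006 and -0.017 at 3 h, -0.285 and -0.402 at 6 h, then -0.922 and -0.787 at 12 h. All A0 arrays before 12 h lay above the controls, which read -0.026 and 0.026, and the cisplatin 3 h arrays lay between the controls. For the A0-lowered list the A0 arrays read -0.11 and -0.138 at 1 h, -0.308 and -0.122 at 3 h, -0.553 and -0.608 at 6 h, then -0.916 and -1.046 at 12 h. The cisplatin arrays read 0.126 and 0.189 at 3 h, 0.504 and 0.54 at 6 h, then 0.878 and 0.707 at 12 h. Here all A0 arrays before 12 h lay below both controls, at 0.028 and -0.028, and all cisplatin arrays before 12 h above. The 12 h arrays and the controls chose the members, so the side of the 12 h arrays follows from the rule. The earlier arrays are also set against those controls. The control readings mirror each other because they are differences from their own mean, so they give no separate measure of spread.

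Single probes varied more between replicates. The SD of the difference between the arrays of a group over the members ran from 0.309 to 0.635. The highest value was for the A0-lowered list at A0 6 h. Over all tested probes this SD was also highest at A0 6 h, at 0.511, beside 0.371 at cisplatin 6 h and 0.328 at A0 1 h. The 6 h test pooled the spread over all groups, so its p-values do not take up the wider spread at A0 6 h.

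The time at which a probe first reached 0.6 in its 12 h direction was counted for each side. For A0-raised probes the A0 side reached it after 1 h in 23 probes, after 3 h in 11, after 6 h in 20 and not before 12 h in 53. The cisplatin side of the same probes reached it after 3 h in 9, after 6 h in 21 and not before 12 h in 77. The A0 side was therefore past 0.6 before 12 h in 54 of 107 probes and the cisplatin side in 30. A0 has 1 more early time than cisplatin. At 3 h or 6 h alone the A0 side was past 0.6 in 53 probes and the cisplatin side in 30, and this difference was not tested. For A0-lowered probes the A0 side reached it after 1 h in 31, after 3 h in 14, after 6 h in 37 and not before 12 h in 71. The cisplatin side reached it after 3 h in 36, after 6 h in 46 and not before 12 h in 71, so the count before 12 h was 82 of 153 for each side. At 3 h or 6 h alone it was 77 for A0 and 82 for cisplatin.

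Some early differences were not held at the times that followed. By the rule all members are past 0.6 at 12 h, so only the times between were free. Of the 31 A0-lowered probes past 0.6 at A0 1 h, 19 were also past it at both 3 h and 6 h. Of the 23 A0-raised ones 19 were as well. Of the 9 A0-raised probes past it at cisplatin 3 h all were past it at 6 h, as were 33 of the 36 A0-lowered ones.

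The early shares can be set beside those of all 8264 probes detected on both controls. At A0 1 h 21.5% of the A0-raised list was raised, where 11% of all probes were, and 20.3% of the A0-lowered list was lowered, where 8.8% were. At A0 3 h these shares were 29% beside 10.4% and 21.6% beside 7.8%, and at A0 6 h 46.7% beside 11.7% and 49% beside 10.5%. With cisplatin 8.41% of the A0-raised list was lowered at 3 h, near the 6.76% of all probes, and 28% at 6 h beside 11.7%. Of the A0-lowered list 23.5% was raised at cisplatin 3 h beside 9.56% of all, and 51.6% at 6 h beside 11.5%. The shared control arrays enter all of these shares.

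At 6 h the sides of a probe were not always both past 0.6. Among A0-raised probes both sides were for 18 probes, only the A0 side for 32, only the cisplatin side for 12 and neither for 45. Among A0-lowered probes these counts were 37, 38, 42 and 36. Called probes came from all of these: 16, 16, 8 and 1 in the first list and 36, 20, 25 and 3 in the second. A call between the drugs at 6 h thus did not need both sides to be past 0.6 at that time. A side short of 0.6 could still lie opposite the other by sign.

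A small group stood on the same side of control with both drugs at 3 h. Of the A0-raised probes 14 were above control by 0.6 or more at cisplatin 3 h although the rule has them below it at 12 h, and 12 of these were also above it at A0 3 h. Of the A0-lowered probes 8 were below control by as much at cisplatin 3 h, and all 8 also at A0 3 h. These shares, 13.1% and 5.23%, lie near the 9.56% and 6.76% of all probes. At A0 1 h 17 A0-lowered probes, or 11.1%, stood above control by 0.6 or more, a share like the 11% of all probes.

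The probe GI_34147657-S had the largest smaller difference of the A0-raised list. Its log2 signal was 9.11 and 8.35 on the controls. With A0 it read 9.14 and 8.63 at 1 h, 9.64 and 8.62 at 3 h, 9.81 and 9.40 at 6 h, then 10.18 and 10.04 at 12 h. With cisplatin it read 7.48 and 6.35 at 3 h, 6.72 and 6.93 at 6 h, then 6.79 and 6.99 at 12 h. The A0 arrays of 6 h and 12 h lay above both controls and those of 1 h and 3 h overlapped them, while all 6 cisplatin arrays lay below. Of these, the 12 h arrays and the controls took part in choosing the probe. Its lowest cisplatin array was at 3 h and its highest A0 array at 12 h. A0 exceeded cisplatin by 2.78 at 6 h (SE 0.388, limma adjusted p = 0.00128). At 3 h the difference was 2.22 (limma adjusted p = 0.0765).

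The probe GI_31317226-S had the largest 6 h difference of the same list among the called members. Its controls read 7.33 and 8.82. Under A0 it read 8.85 and 7.93 at 1 h, 9.64 and 8.03 at 3 h, 9.46 and 8.06 at 6 h, then 9.18 and 8.09 at 12 h. Under cisplatin it read 5.50 and 5.38 at 3 h, 5.94 and 5.22 at 6 h, then 5.81 and 6.09 at 12 h. The A0 arrays overlapped the controls at every time, while all cisplatin arrays lay below them, so its place among opposite movers rests on the mean of controls that disagree. A0 exceeded cisplatin by 3.18 at 6 h (SE 0.609, limma adjusted p = 0.00635). Leaving out A0 6 h replicate 1 gave a limma adjusted p = 0.0584, so that the call was lost. It was also lost when cisplatin 6 h replicate 2 was left out (limma adjusted p = 0.0823), and over all alternatives the limma adjusted p ran from 0.00252 to 0.0823. At 3 h A0 exceeded cisplatin by 3.40 (limma adjusted p = 0.0765). Cisplatin detected it on 1 of 2 arrays at 3 h and at 6 h.

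The probe GI_28872718-S had the largest smaller difference of the A0-lowered list. Its log2 signal was 7.20 and 6.98 on the controls. With A0 it read 7.26 and 7.52 at 1 h, 6.29 and 5.73 at 3 h, 5.07 and 4.54 at 6 h, then 5.41 and 5.11 at 12 h. With cisplatin it read 8.48 and 8.26 at 3 h, 9.17 and 9.36 at 6 h, then 9.74 and 9.60 at 12 h. Its arrays were above both controls at A0 1 h and below them from 3 h on, and all cisplatin arrays lay above. The drugs differed by -2.36 at 3 h (SE 0.242, limma adjusted p = 0.00141) and by -4.46 at 6 h (adjusted p = 4.28e-07). No A0 array detected it at 6 h or 12 h, so A0 was at least 13.4-fold lower than cisplatin at 6 h and at least 15.5-fold lower at 12 h. The adjusted p belongs to the measured difference, and the bound was not tested. The change from 3 to 6 h differed between the drugs by -2.10 (limma adjusted p = 0.0857).

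The probe GI_31881784-S had the largest 6 h difference among the other A0-lowered probes. Its controls read 8.30 and 8.20. Under A0 it read 8.04 and 8.04 at 1 h, 7.05 and 8.04 at 3 h, 5.26 and 6.14 at 6 h, then 5.58 and 5.71 at 12 h. Under cisplatin it read 9.01 and 8.59 at 3 h, 9.26 and 9.15 at 6 h, then 9.60 and 8.60 at 12 h. All 8 A0 arrays lay below both controls and all 6 cisplatin arrays above, though the 12 h arrays and the controls took part in choosing the probe. The drugs differed by -3.51 at 6 h (SE 0.366, limma adjusted p = 0.000217) and by -1.26 at 3 h (adjusted p = 0.503). A0 detected it on 1 of 2 arrays at 6 h and at 12 h.

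By their median the members were dimmer than all probes detected on both controls, the A0-lowered list more so. Their median control intensity on the processed values was 196.3 in the A0-raised list and 121.8 in the A0-lowered list, beside 209.4 for all probes detected on both controls. The upper quartile was 354.1 and 226.7 beside 531.6. At cisplatin 12 h both arrays detected 70 A0-raised probes, 26 were detected on 1 array and 11 on neither. At A0 12 h both arrays detected 66 A0-lowered probes, 35 were detected on 1 array and 52 on neither. The 12 h level of an undetected probe is a signal at background. The floor of 32 set both arrays of the low group for 11 A0-raised and 18 A0-lowered probes, and at least 1 of them for 32 and 58.

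The suffix of a probe's name tells, on this type of array, whether it was designed for a gene with a single transcript (S), for 1 transcript variant (I) or for all variants (A). The A0-raised list held 76 S, 20 A and 11 I probes, so that A and I made up 18.7% and 10.3%, beside 12% and 5.34% of all probes detected on both controls. The A0-lowered list held 132 S, 18 A and 3 I probes, or 11.8% A and 1.96% I. These are counts without a test. In 13 cases another probe on the array carried the same number as a member, and 7 of these others were detected on both controls. Of these 7, 4 were themselves members, in 2 pairs that each share a source sequence, so the rule required their signs. The other 3 missed the threshold with cisplatin, at -0.56 to -0.41. These 3 had the signs of the member at 12 h with both drugs.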

How the data were processed

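Transcripts were read on 16 Illumina bead arrays of 1 colour, in 8 groups. For every array the authors deposited the average bead intensity of each probe (linear, without scaling across arrays), its bead number and a detection score, a fraction of at most 1, per the file headers. The submitters' processing notes name BeadStudio 1.5.1.3. The authors also deposited a table of processed intensity for all arrays, linear and partly below 0, made by a method that the sources used here do not state.

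Members were chosen on the processed table. The members and lists were chosen with earlier results of these data known. For the tests, scanner intensities were corrected and quantile normalised with neqc (offset 16) in limma 3.58.1 under R 4.3.3. Tested probes had a detection p of 0.01 or less, taken as 1 minus the detection score, on the 2 arrays of some group, which kept 9293 probes, among them all 260 members. limma's model had 1 mean for each of the 8 groups, with 8 residual and 5.7 prior degrees of freedom, so the spread was pooled over all 16 arrays. Only 5 comparisons without the 12 h and control arrays were tested, adjusted over all 9293 probes, and the test was tried on simulated data. Named probes are those first by the smaller 12 h difference and by the 6 h difference, 2 per direction. The bead standard deviations were not used. Alternatives covered normalisation, filter, variance, arrays in the model, replicate block, rule and single arrays.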

Additional observations from a re-analysis of the deposited data

Results flagged for a closer look

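The effects of the drugs differed by a direct test at 125 members at 6 h and at 1 member at 3 h. Of all 9293 tested probes 3.29% were called higher and 4.84% lower with A0 at 6 h. At 3 h these shares were 0.0108% each. The 6 h count of members rested in part on the array cisplatin 6 h replicate 2. Among the named probes the 6 h difference of A0 minus cisplatin was -4.46 for GI_28872718-S, -3.51 for GI_31881784-S, 2.78 for GI_34147657-S and 3.18 for GI_31317226-S on the log2 scale. The 3 h difference was -2.36 for GI_28872718-S. Groups of 2 arrays are too small to be searched for single arrays that stand far from the others.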

How the results depend on the processing

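The A0-raised list of 107 became 64 with neqc values (55 shared, 51.4% of the list), 71 with 75th percentile centring, 70 when detection was required on all 6 arrays of the rule, and 40 and 13 at thresholds of 0.8 and 1. The A0-lowered list of 153 became 91 with a floor of 64, 100 with 75th percentile centring, 66 with detection on all 6 arrays, and 65 and 19 at thresholds of 0.8 and 1. It was 136 with neqc values. With 1 array of the rule left out the lists held 98 to 196 and 132 to 231 probes. Of the members, 36 of 107 and 50 of 153 were found again in all of these cases. The highest counts were reached without cisplatin 12 h replicate 1 for the first list and without cisplatin 12 h replicate 2 for the second. The 125 members called at 6 h became 101 to 145 under the other fits, among them 124 with only the 10 arrays that the rule did not use and 145 with a replicate block, with 0 called the other way. With 1 array left out they ranged from 48 (without cisplatin 6 h replicate 2) to 131. In the smaller sets of members chosen after seeing the data, 57 and 62 were called in the main fit. Of all tested probes 3.29% were called higher and 4.84% lower in that fit. The first set is the 36 A0-raised and 50 A0-lowered members found again when each array of the rule is left out. The second is the 65 and 63 members detected on all 16 arrays. The 1 call at 3 h became 4 with 75th percentile centring, 2 with the processed values, with probes detected on both controls or with a trended and robust variance, 3 with a replicate block, and 1 to 4 with 1 array left out. For cisplatin 6 h against 3 h the 0 became 1 with probes detected on both controls or a replicate block, 4 with a trended and robust variance, and 0 to 2 with 1 array left out. The changes from 3 to 6 h with A0 and the interaction gave 0 members in every fit, also with 1 array left out. Uncalled values of single probes changed sign when 1 array was left out: from 3 to 6 h with A0 they ran from -0.027 to 0.986 for GI_34147657-S and from -0.876 to 0.734 for GI_31317226-S (0.066 with 75th percentile centring). With cisplatin they ran from -0.652 to 0.478 and from -0.214 to 0.506, and in the interaction from -1.022 to 0.588 for GI_31317226-S. At 3 h the drug difference of GI_34147657-S and of GI_31317226-S passed in 5 and 4 alternatives, with adjusted p down to 0.0133 and 0.0434. Where a value moved, the cause was not tested. The replicate numbers were not taken to pair the arrays, since the rule set here asked for a correlation above 0.1 for every pair of groups. In every group replicate 2 detected more probes than replicate 1. The counts were 9640 against 7626 at A0 3 h and 8835 against 8719 at cisplatin 6 h. What this split reflects was not tested. The deviations of same-numbered arrays correlated at -0.257 to 0.376 over 28 pairs, with 18 above 0.1 and 1 below -0.1, and each group's mean with the others was 0.071 to 0.226. Signal over background limits the lists, since 11 A0-raised and 52 A0-lowered probes were undetected on both arrays of their low 12 h group.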
